A study of Mus musculus with 6 samples.

Results

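The genes described here encode the machinery that starts transcription of protein-coding genes: the subunits of RNA polymerase II, of Mediator, and of the general transcription factors TFIIA, TFIIB, TFIIE, TFIIF and TFIIH. They were chosen by symbol among the protein-coding genes of the GENCODE M39 annotation (Polr2a to Polr2m, Med followed by a number, and Gtf2 followed by a, b, e, f or h), which gave 56 of 21770 genes: 13 Polr2 genes, 30 Mediator genes and 13 TFII genes. TAF4b and the histone mark H3K4me3 were mapped in prospermatogonia, the germ cells that arrest in the testis before birth, by CUT&RUN, where an antibody brings a nuclease to its target and the DNA released there is sequenced. All cells were male, Taf4b-wildtype and of strain C57BL/6, at stage E16.5. Live gonad cells were sorted by green fluorescence, from embryos of mice homozygous for the Oct4-EGFP transgene (B6;129S4-Pou5f1tm2Jae/J), in which the fluorescence reports Oct4 expression. The protocol kept both GFP-positive and GFP-negative cells without saying which each library holds, and the labels name the source prospermatogonia. The 3 groups differ only in the antibody, TAF4b, H3K4me3 or the control IgG, with 2 replicates each. The 2 IgG libraries were not analysed here, and the labels do not say whether the replicates came from separate sorts or litters.

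RNA polymerase II cannot find promoters unaided. TFIID, of which TAF4b is a subunit found mainly in germ cells and a few other tissues, recognises the core promoter, TFIIA and TFIIB join it, TFIIF brings the polymerase, and TFIIE and TFIIH open the DNA and phosphorylate the polymerase tail. Mediator bridges this complex to activators bound elsewhere, with head and middle modules that touch the polymerase, a tail that meets activators, and a detachable kinase module. H3K4me3 marks the nucleosomes around active or poised start sites.

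The lists held 7861 and 848 TAF4b peaks and 64891 and 1730 H3K4me3 regions in replicates 1 and 2, and the depth of each library is unknown, so a gene missing from replicate 2 is described only as not listed there. The peak score is the authors' value, on a scale that no header states, and is compared here only within a list. Its lowest listed values were 6.45 and 40.5 for TAF4b and 16.4 and 96 for H3K4me3. TAF4b promoter peaks of replicate 1 lay at 8 of 12 germ cell markers (Dazl, Ddx4 and Piwil2 among them) and at 0 of 26 markers of Sertoli, Leydig and interstitial, endothelial, immune and red cells, against 22.7% of all protein-coding genes, and 2 of the 26, Nr5a1 and Nr2f2, had a peak within 500 bp of a start. Replicate 2 had 0 of either kind, against 3.14% of all. H3K4me3 promoter regions lay at 5 germ cell markers and at 11 of the 26 others (Sox9, Wt1 and Gata4 among them) in replicate 1, both near the 44% of all protein-coding genes. In replicate 2 they lay at 1 and 0, against 4.13% of all. Counted within 500 bp of a start, they lay at 9 of the 12 and 15 of the 26 in replicate 1, against 70.7% of all. In replicate 2 that count gave 1 of the 12 and 1 of the 26 (Wt1), against 7% of all. The part of other cells in the H3K4me3 values below was not tested.

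TAF4b peaks were found at many of the transcription machinery genes in replicate 1 and at 1 of them in replicate 2. Counting intervals that the authors classed as promoter-TSS and named for a transcript of the gene, 27 of 56 genes (48.2%) had a TAF4b peak in replicate 1, where 22.7% of all protein-coding genes did. By complex the counts were 5 of 13 Polr2 genes, 14 of 30 Mediator genes and 8 of 13 TFII genes. The name goes to 1 gene per interval, so a promoter shared with a neighbour is lost to the other gene. Counting instead every interval that comes within 500 bp of an annotated start site of the gene, whichever gene is named (the start-site count), gave 35 of 56 genes, against 28.2% of all protein-coding genes. Among the protein-coding genes with H3K4me3 at the start in the same replicate, 39% had TAF4b. Other assignments gave the following counts, each beside the share of all protein-coding genes. Intervals with the gene as the authors' nearest, at a deposited distance within 1000 bp, held 31 genes for TAF4b replicate 1 (23.8%), 1 for TAF4b replicate 2 (3.2%), 46 for H3K4me3 replicate 1 (61.9%) and 4 for H3K4me3 replicate 2 (5.89%). The nearest gene at any distance gave 31 (26.2%), 1 (3.35%), 47 (74%) and 4 (6.67%) in the same order. The promoter class with either of the 2 deposited gene columns gave 31 (24.9%), 1 (3.57%), 40 (48.5%) and 2 (4.78%). The start-site count for TAF4b replicate 2 was 1 (4.07%). No test was run on these shares, because genes of 1 library are not replicates. The 38 TAF4b peaks of the start-site count had scores from 7.44 to 47.1 with a median of 15.4. The strongest peak at each of the 35 genes had a median score of 15.4, against 17.9 over all 6148 protein-coding genes counted in this way. In the full list of replicate 1 the machinery genes thus held TAF4b peaks more often than the whole annotation, with a median score that was not higher. In replicate 2 the count was 1 of 56 genes, against 3.14%. Among the 848 highest peaks of replicate 1 it was 1 of 56 by the authors' naming (Polr2a), against 3.35%, and 3 of 56 by the start-site count (Med19, Med29 and Polr2a), against 4.38%, which are counts too small to set apart from those shares.

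**Figure D1:**
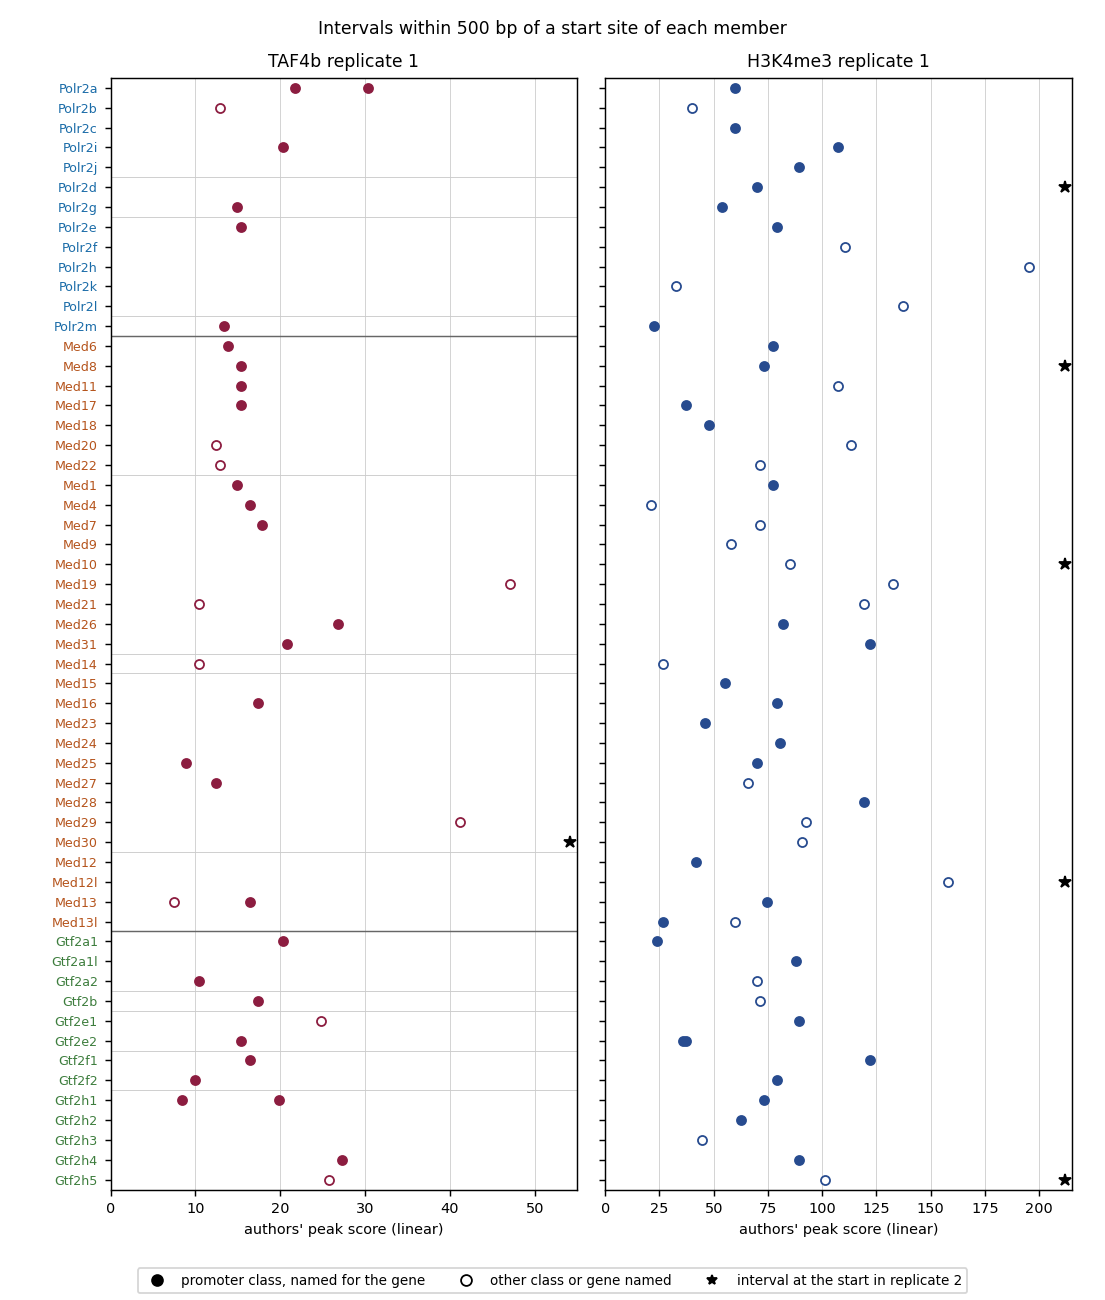
Authors' peak score (linear axes) of every interval within 500 bp of a start site of each of the 56 genes, in TAF4b replicate 1 (left) and H3K4me3 replicate 1 (right), ordered by complex and module. Filled points are promoter intervals named for the gene, open points are other intervals at its start, and stars mark genes with an interval at the start in replicate 2 (1 for TAF4b, 5 for H3K4me3). Med19 and Med29 have the highest TAF4b scores, and Polr2h has the highest H3K4me3 score.

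Within RNA polymerase II, TAF4b was at the start of 6 of 13 genes in replicate 1 (46.2%). The share was 28.2% of all protein-coding genes and 39% of those with H3K4me3 at the start. Of the 5 core genes, Polr2a, Polr2b and Polr2i had it. Polr2a encodes the largest subunit, which carries the catalytic centre and the repetitive tail, and was 1 of 2 genes with a pair of TAF4b promoter peaks named for it. Its peaks scored 30.3 and 21.8, with centres at -70 bp and -481 bp from the canonical start (chromosome 11, 69649467 to 69649609 and 69649878 to 69650020). Polr2i, a small subunit linked to transcription fidelity, had a peak of 20.3 (chromosome 7, 29931202 to 29931344). Polr2b, the second-largest subunit, had a peak of 12.9 that the authors named for its neighbour Noa1. Of the stalk pair, Polr2g had a TAF4b peak (14.9) and Polr2d had none. Polr2m, which encodes a protein that binds the assembled polymerase, had a peak of 13.4. Polr2c and Polr2j, which form the assembly heterodimer, had no TAF4b peak. Of the 5 subunits shared with polymerases I and III, Polr2e had a TAF4b peak (15.4) and Polr2f, Polr2h, Polr2k and Polr2l had none, while all 5 had H3K4me3 at the start. The H3K4me3 scores of these 4 genes were 110.3 (Polr2f), 195.3 (Polr2h), 32.8 (Polr2k) and 137.1 (Polr2l). The authors named the regions at Polr2f, Polr2h and Polr2l for other genes, 1700088E04Rik, Clcn2 and Tspan4. Polr2h, with no TAF4b peak, held the highest H3K4me3 score of the 56 genes and the widest region, 3311 bp.

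Within Mediator, TAF4b was at the start of 19 of 30 genes in replicate 1 (63.3%), and the counts by module depended on the rule. By the start-site count they were 6 of 7 head, 7 of 9 middle, 4 of 9 tail and 1 of 4 kinase genes, and by the authors' naming 4 of 7, 5 of 9, 3 of 9 and 2 of 4. The authors' nearest gene within 1000 bp gave 4 of 7, 5 of 9, 4 of 9 and 2 of 4, and no difference between modules was tested. Over all protein-coding genes the shares were 28.2% by the start-site count, 22.7% by the naming and 23.8% by the nearest gene. By the start-site count, in the head, which contacts the polymerase, 6 of 7 genes had a peak, all but Med18, with scores from 12.4 (Med20) to 15.4 (Med8, Med11 and Med17). In the middle module 7 of 9 genes had a peak, all but Med9 and Med10. Med19, a subunit at the hook of the middle module, had the highest TAF4b score of all 56 genes, 47.1, which ranked 57 among 7861 peaks, and the authors named that peak for Tmx2. Med26, which links Mediator to elongation factors, followed in the middle module at 26.8, and Med31, a small conserved subunit, at 20.8 (chromosome 11, 72105821 to 72105963). The backbone gene Med14, on the X chromosome, had a peak of 10.4 named for Gm14634. In the tail 4 of 9 genes had a peak: Med29 at 41.2, rank 155, named for Paf1, then Med16 at 17.4, Med27 at 12.4 and Med25 at 8.93. Med15, Med23, Med24 and Med28 had none in either replicate, and Med30 had one in replicate 2 only. Med15 and Med23 encode activator-binding subunits.

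The kinase module holds the paralogue pairs of Mediator. Med12, on the X chromosome, and Med12l had no TAF4b peak in either replicate. Their H3K4me3 regions differed in the same list, with a score of 41.7 and a width of 940 bp at Med12 (chromosome X, 100317057 to 100317997) and a score of 158 and a width of 2877 bp at Med12l (chromosome 3, 58912462 to 58915339). The Med12l region was named for the noncoding gene Gm43570, which lies at the same start. Med13 had a TAF4b promoter peak of 16.4 upstream and an intronic peak of 7.44, centred at -379 bp and 550 bp from the canonical start (chromosome 11, 86249056 to 86249198 and 86248127 to 86248269), both inside 1 H3K4me3 region. Med13l had a TAF4b promoter peak of 13.9 (chromosome 5, 118697694 to 118697836) at a deposited distance of -979 bp, outside the 500 bp of the start-site count and inside an H3K4me3 region that was classed as intergenic.

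Among the general factors, TAF4b was at the start of 10 of 13 genes in replicate 1 (76.9%), against 28.2% of all protein-coding genes. They were 2 of 3 TFIIA genes, the single TFIIB gene, both TFIIE genes, both TFIIF genes and 3 of 5 TFIIH genes. The TFIIA paralogues went different ways. Gtf2a1, the widely expressed large subunit gene, had a TAF4b peak of 20.3 (chromosome 12, 91556932 to 91557074) that ran past the edge of an H3K4me3 region of score 23.8 and width 500 bp (91556550 to 91557050). Gtf2a1l, its paralogue known from germ cells, had no TAF4b peak and an H3K4me3 region of score 87.9 and width 1074 bp (chromosome 17, 88975620 to 88976694). Gtf2a2, the small TFIIA subunit, had a TAF4b peak of 10.4 and Gtf2b, which bridges TFIID and the polymerase, one of 17.4. In TFIIE, Gtf2e1 had a peak of 24.8 named for Rabl3 and Gtf2e2 one of 15.4. In TFIIF, the scores were 16.4 at Gtf2f1 and 9.93 at Gtf2f2. In TFIIH, whose core subunits also serve DNA repair, Gtf2h4 had 27.3, Gtf2h5 had 25.8 in a peak named for Serac1, and Gtf2h1 had 19.9 and 8.44 (chromosome 7, 46445088 to 46445230 and 46445496 to 46445638). Gtf2h2 and Gtf2h3 had no TAF4b peak in either replicate.

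**Figure D2:**
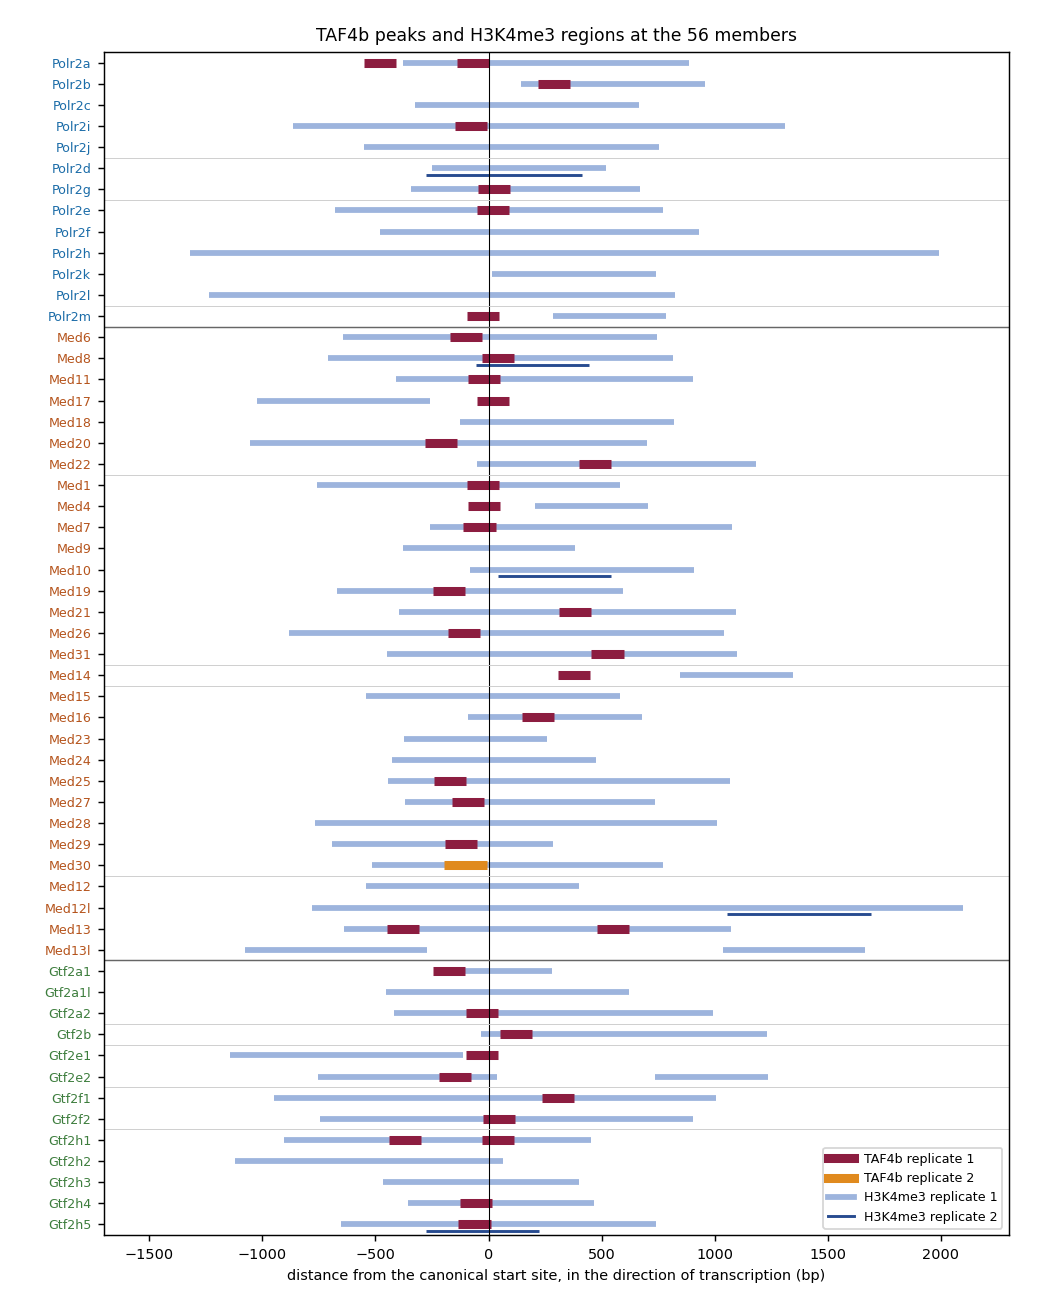
TAF4b peaks (thick bars, replicate 1 dark red and replicate 2 orange) and H3K4me3 regions (thin bars, replicate 1 light and replicate 2 dark blue) drawn to scale by distance in bp from the canonical start site of each of the 56 genes, in the direction of transcription. All 56 rows hold a light bar and 35 hold a dark red bar, and at Med17, Med4 and Polr2m, for example, the TAF4b peak lies at the start with the H3K4me3 region to 1 side.

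The sequences below are the 5 TAF4b peaks with the highest replicate 1 scores at the start of these genes, and the Med30 peak as the only one in replicate 2. They were chosen after the scores were seen, since no gene had a TAF4b peak in both replicates. Each is read from the GRCm39 genome on the strand of the named gene, 5′ to 3′, with matches to the searched sequences (listed with the motif counts) in capitals.
Med19 (GRCm39 chr2:84508495-84508637, plus strand): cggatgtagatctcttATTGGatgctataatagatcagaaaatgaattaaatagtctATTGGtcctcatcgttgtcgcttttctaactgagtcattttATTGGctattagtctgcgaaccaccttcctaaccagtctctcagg
Med29 (GRCm39 chr7:28092182-28092324, minus strand): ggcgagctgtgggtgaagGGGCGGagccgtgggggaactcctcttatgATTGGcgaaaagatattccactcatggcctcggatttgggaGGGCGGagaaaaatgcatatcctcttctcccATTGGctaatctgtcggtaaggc
Polr2a (GRCm39 chr11:69649467-69649609, minus strand): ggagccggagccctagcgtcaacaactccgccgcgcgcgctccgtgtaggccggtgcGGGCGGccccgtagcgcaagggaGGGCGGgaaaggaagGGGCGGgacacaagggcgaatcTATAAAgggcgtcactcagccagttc
Gtf2h4 (GRCm39 chr17:35984616-35984758, minus strand): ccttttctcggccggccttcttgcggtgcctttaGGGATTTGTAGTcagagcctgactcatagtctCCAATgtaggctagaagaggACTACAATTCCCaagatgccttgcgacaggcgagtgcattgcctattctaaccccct
Med26 (GRCm39 chr8:73302162-73302304, minus strand): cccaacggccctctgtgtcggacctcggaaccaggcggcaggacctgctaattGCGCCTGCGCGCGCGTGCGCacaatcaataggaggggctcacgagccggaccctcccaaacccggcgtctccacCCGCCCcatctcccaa
Med30 (GRCm39 chr15:52575615-52575803, plus strand): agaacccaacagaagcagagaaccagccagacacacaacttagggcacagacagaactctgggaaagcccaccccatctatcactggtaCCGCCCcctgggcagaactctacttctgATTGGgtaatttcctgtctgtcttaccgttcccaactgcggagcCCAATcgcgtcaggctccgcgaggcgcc

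These peaks differ in make-up. The Med19 peak had a GC content of 38.5%, as low as in 0.114% of the 5244 TAF4b promoter peaks of protein-coding genes, and 3 copies of the CCAAT box, all in 1 orientation. At least 3 copies, in any orientation, were in 3.39% of those peaks. The Med29 peak held 2 GC boxes and 2 CCAAT boxes. The Polr2a peak held 3 GC boxes and a TATA box beginning 24 bp before the canonical start, and 1.7% of all TAF4b promoter peaks held a TATA box. The Gtf2h4 peak held 2 GFY sequences facing opposite ways around a CCAAT box, and 0.572% of the 5244 peaks had at least 2 GFY sequences. The Med26 peak held 2 NRF1 sequences that abut, and 2.33% of peaks had at least 2. The replicate 2 peak of Med30 held 1 GC box and 2 CCAAT boxes of opposite orientation. None of these matches shows that a factor was bound.

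H3K4me3 was at the start of every one of the 56 genes in replicate 1 by the start-site count, against 70.7% of all protein-coding genes. By the authors' naming the count was 34 of 56 genes (60.7%), against 44%. The other 22 genes had a region at the start that was classed as exon or intron (10 genes, such as Gtf2b and Med7) or was named for another gene (12 genes, such as Polr2f and Med21). In the TAF4b and H3K4me3 lists of replicate 1, 16 of the 56 genes had no promoter interval named for them (28.6%), against 50% of all protein-coding genes. Counting both antibodies and replicates, 15 genes had none in any list, and all 15 had H3K4me3 at the start. They were Polr2f, Polr2h, Polr2k, Polr2l, Med9 (H3K4me3 score 58.1), Med10 (85), Med12l, Med14, Med19, Med20, Med21, Med22, Med29, Gtf2h3 (44.7) and Gtf2h5. The region covered the canonical start base itself at 48 of the 56 genes, and the 8 others were Gtf2e1, Med13l, Med14, Med17, Med4, Polr2b, Polr2k and Polr2m. The 58 regions at these starts were 500 to 3311 bp wide, with a median of 1210 bp. Taking the strongest region at each gene, the scores ran from 20.9 (Med4) to 195.3 (Polr2h) with a median of 73.8, against 92.4 over the 15396 protein-coding genes with H3K4me3 at the start. The median was 74.5 over the 35 genes with TAF4b at the start and 70.1 over the 21 without, and over all protein-coding genes these medians were 96.9 and 89.4. By the start-site count in replicate 1 the machinery genes thus all carried the mark, with a median score below that of all marked genes. In replicate 2 it was at 5 of them, against 7% of all.

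Most TAF4b promoter peaks named for these genes lay inside H3K4me3 regions of replicate 1. Of 29 such peaks, 25 overlapped a region by at least 1 bp (86.2%, exact binomial 95% interval 68.3 to 96.1, which covers counting error only), and over all protein-coding genes 86.5% did. The 4 others lay close to a region: the upstream Polr2a peak 33 bp from its edge, Med4 156 bp, Med17 208 bp and Polr2m 238 bp. The H3K4me3 scores there were 59.6 at Polr2a, 20.9 at Med4, 37.3 at Med17 and 22.4 at Polr2m. In the H3K4me3 list of replicate 2, 1 of the 29 peaks, that of Med8, lay in a region, where 8.22% of such peaks did over all protein-coding genes.

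By the promoter class, the median TAF4b peak lay upstream of the start and the median H3K4me3 region was centred just after it. In replicate 1 this class leaves out the H3K4me3 regions of 10 genes, classed as exon or intron. Those all lay downstream, at deposited distances from 103 bp (Med30) to 824 bp (Med14). By the authors' distances, where the nearest start belonged to the named gene, the median position of TAF4b promoter peaks was -54.5 bp in replicate 1 (28 peaks, 23 of them upstream) and -95 bp in replicate 2 (1 peak). Over all 38 replicate 1 peaks of the start-site count, measured from the canonical start, the median was -25.5 bp and 23 were upstream. For H3K4me3 the medians were 2 bp (29 regions) and 15 bp (1 region). With every interval whose nearest gene was 1 of the 56 within 1000 bp, the H3K4me3 medians were 13.5 bp (46 regions) and 153.5 bp (4 regions), the TAF4b medians -53 bp and -95 bp, and the mean difference -157.5 bp. Both TAF4b values lay below both H3K4me3 values, and the mean difference was -83.25 bp by the promoter class. The exact two-sided permutation p over the 4 libraries was 0.33, the smallest that 2 libraries against 2 can give, so the design could not pass a threshold of 0.05. Over all protein-coding genes the TAF4b medians were -54 bp and -80 bp, near those of the machinery genes in replicate 1 and in the single peak of replicate 2. The H3K4me3 medians over all protein-coding genes were -45 bp and -18 bp, upstream of the 2 bp and 15 bp at the machinery genes, and this difference was not tested.

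In replicate 2 the lists were short and few of the 56 genes were in them. TAF4b had 1 gene, Med30, where 3.14% of all protein-coding genes were called. Its peak (chromosome 15, 52575615 to 52575803) scored 72.9, rank 214 of 848, at a deposited distance of -95 bp, and it lay inside an H3K4me3 region of replicate 1 with a score of 90.9, and outside every region of replicate 2. Of all replicate 2 TAF4b promoter peaks of protein-coding genes, 91.8% overlapped a replicate 1 region by at least 1 bp and 12.3% a replicate 2 region, and 85.4% and 8.32% lay wholly inside one. The nearest TAF4b peak of replicate 1 was 720472 bp away, at Rad21. Of all protein-coding genes with a TAF4b peak at the start in replicate 2, 86.6% also had one in replicate 1, so Med30 belongs to the minority. None of the 35 genes with a replicate 1 peak was in replicate 2, where 12.5% of all such genes were. Of these 35, Med19, Med29 and Polr2a had a replicate 1 peak ranked within the first 848. H3K4me3 of replicate 2 named 1 of the 56 genes, Polr2d, where 4.13% of all were called. By the start-site count there were 5 genes, against 7%: Polr2d (score 151.6, chromosome 18, 31921883 to 31922573), Med12l (141.5), Med10 (131.4), Gtf2h5 (101.1) and Med8 (96, the lowest score listed). In replicate 1 the regions of these 5 genes ranked 18944, 2183, 13516, 9083 and 17733 among 64891, in the same order, and Polr2h, at rank 850, was the only one of the 56 within the first 1730 and was not in replicate 2. Gtf2h5 and Med8 also had TAF4b in replicate 1, and Polr2d, Med12l and Med10 did not. Of all protein-coding genes with H3K4me3 at the start in replicate 1, 9.82% had it in replicate 2, and of those with it in replicate 2, 48.4% had TAF4b in replicate 1.

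Shared starts were common among these genes. A protein-coding start on the opposite strand lay within 1000 bp of the canonical start at 15 of 56 genes (26.8%), against 8.86% of all protein-coding genes. Such pairs are known as bidirectional promoters when the genes point away from each other. At Polr2b, Polr2f, Polr2i, Med22, Med31, Gtf2f1 and Gtf2h3 the opposite start lay downstream of the gene's own start. Counted upstream, these distances ran from -15 bp (Gtf2h3) to -675 bp (Med31), so these neighbours overlap at their starts. TAF4b was at the start of 12 of these 15 genes in replicate 1, where it was at 64% of all protein-coding genes with such a neighbour. The 3 without it were Polr2f, Polr2h and Gtf2h3. Of the 41 genes with no such neighbour 23 had TAF4b (56.1%), against 24.8% of all genes of that kind. The distance between the starts was 25 bp for Gtf2h5 and Serac1, 26 bp for Gtf2h1 and Hps5, 75 bp for Gtf2e1 and Rabl3, 209 bp for Med29 and Paf1, and 279 bp for Med19 and Tmx2. Paf1 itself encodes a subunit of an elongation complex of RNA polymerase II, so the Med29 peak lies between a pair of transcription genes. The highest TAF4b scores of the 56 genes, at Med19 and Med29, were both at shared starts, and which gene of a pair a peak belongs to cannot be told from its position.

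**Figure D3:**
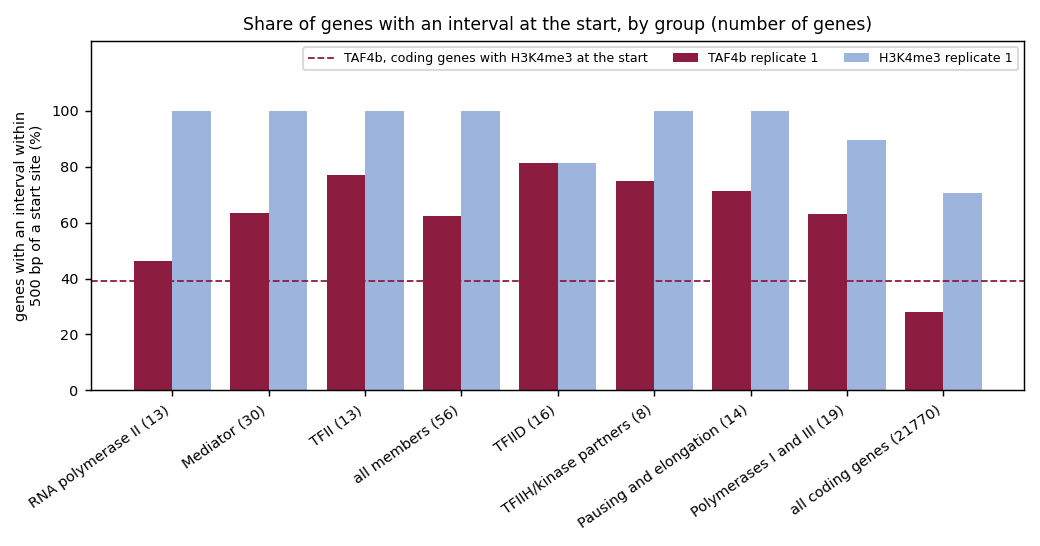
Share of genes (%) with an interval within 500 bp of a start site in TAF4b replicate 1 (dark bars) and H3K4me3 replicate 1 (light bars), for the 3 gene groups, related gene lists and all protein-coding genes, with the number of genes in parentheses (the polymerase I and III list also holds Polr1has, which is no subunit gene). The dashed line is the TAF4b share of protein-coding genes with H3K4me3 at the start, 39%. The TAF4b share is 46.2% for RNA polymerase II, 63.3% for Mediator and 76.9% for TFII genes.

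A set of 8 sequences was searched on both strands in the 300 bases from 250 bp before to 50 bp after the canonical start, with overlapping matches of different sequences each counted: the GC box GGGCGG, the CCAAT box CCAAT, the TATA box TATAAA, the ETS sequence CCGGAAG, the NRF1 sequence, the YY1 sequence ATGGCGGC, the GFY sequence and the E-box CACGTG. The GC box was in 36 of 56 promoters (64.3%), against 42.5% of all 21770 protein-coding promoters, and the CCAAT box was in 24 (42.9%), against 39.9%. The TATA box was in 6 promoters (10.7%), against 13.2%, and the 6 genes were Polr2a, Polr2c, Med7, Med28, Gtf2a2 and Gtf2f2. The ETS sequence was in 14 (25%), against 10.3%. The YY1 sequence was in 5 (8.93%), against 1.94%, and the NRF1 sequence in 6 (10.7%), against 5.81%. GFY was in 4 promoters (7.14%), against 2.66%, and the E-box in 7 (12.5%), against 7.81%. Among the 35 promoters with TAF4b and the 21 without, the GC box was in 62.9% and 66.7% and the CCAAT box in 42.9% of both. All 56 genes had H3K4me3 at the start in replicate 1, unlike the whole annotation. Over all protein-coding promoters with TAF4b the GC box was in 64.2% and the CCAAT box in 44.7%. Over those with H3K4me3 and no TAF4b the shares were 50.5% and 35.9%. The ETS sequence was in 6 of the 35 and in 8 of the 21, while over all protein-coding promoters it was in 18.5% of those with TAF4b and 10.4% of those with H3K4me3 and no TAF4b. The NRF1, YY1, GFY and E-box sequences were in 14.3%, 8.57%, 8.57% and 14.3% of the 35, against 12.5%, 3.4%, 6.44% and 11.6% of all with TAF4b. In the 21 the shares were 4.76%, 9.52%, 4.76% and 9.52%, against 5.03%, 2.01%, 1.73% and 8.4% of all with H3K4me3 and no TAF4b. These counts are small and were not tested. Median GC content was 56% over the 56 promoters and 54.3% over all, and 56.3% and 55% with and without TAF4b. Over all protein-coding promoters it was 59.5% with TAF4b and 56.7% with H3K4me3 and no TAF4b.

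**Figure D4:**
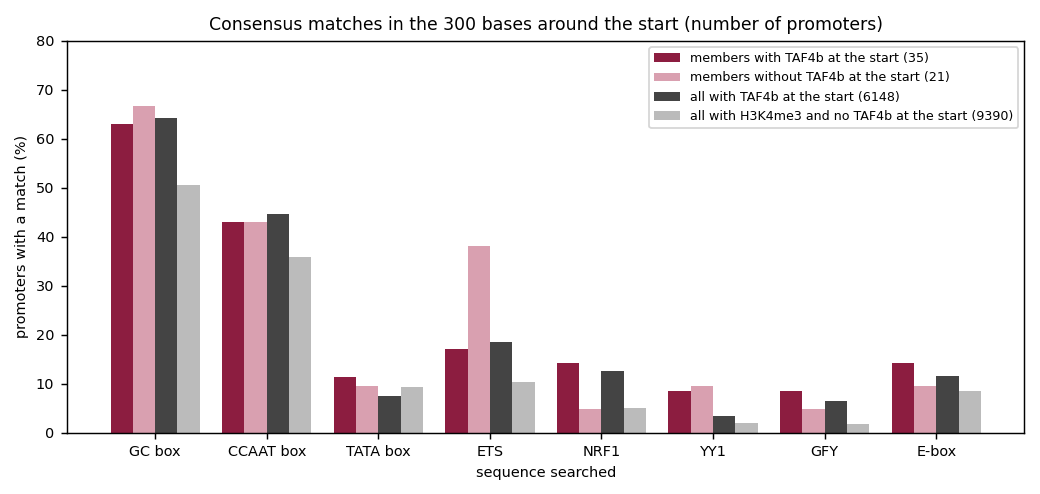
Share of promoters (%) with at least 1 match to each of the searched sequences in the 300 bases around the canonical start, for the 35 machinery genes with TAF4b at the start in replicate 1, the 21 without, and all protein-coding genes with TAF4b or with H3K4me3 and no TAF4b at the start. The GC box and the CCAAT box differ little between the machinery genes with and without TAF4b, and the ETS sequence is in 17.1% of the former and 38.1% of the latter.

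Related genes outside the symbol rule also had TAF4b promoter peaks in replicate 1. Of 8 further TFIIH and Mediator kinase genes, 6 had a TAF4b promoter peak named for them (22.7% of all genes did): Ercc2 (19.4) and Ercc3 (7.94), the TFIIH helicases, Ccnh (13.9), the TFIIH cyclin, and Ccnc (15.9), Cdk8 (9.93) and Cdk19 (44.2 and 26.8), the cyclin and kinases of the Mediator kinase module. Cdk7 and Mnat1 had none. The whole kinase module thus had TAF4b at Cdk8, Cdk19 and Ccnc, and among its 4 Med genes at Med13 and Med13l. Of 14 pausing and elongation genes 10 had a TAF4b promoter peak, of 16 TFIID genes 10 did, and of 19 genes whose symbols begin with Polr1 or Polr3, 9 did. Those 19 are subunit genes of polymerases I and III except Polr1has, a neighbour of Polr1h that is no subunit and is not among the 9. In replicate 2, where 3.14% of all protein-coding genes had a TAF4b promoter peak named for them, these lists had 0, 1, 1 and 1 gene. They were Supt5, the pausing and elongation factor (64.8 in replicate 2 and 24.8 in replicate 1), Taf1, the largest TFIID subunit (44.5 and 17.9), and Polr1d, a subunit shared by polymerases I and III (60.7 in replicate 2, and 25.3 and 12.4 in replicate 1). Each of these 3 genes thus had a TAF4b promoter peak named for it in both replicates. At Polr1d the authors' nearest gene was Lnx2 for the 60.7 and 25.3 peaks, and Polr1d itself only for the 12.4 peak. Which gene these peaks belong to cannot be told from their position. By the start-site count 3.53% of all protein-coding genes had TAF4b in both replicates. None of the 56 machinery genes did, a count too small to set apart from that share.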

How the data were processed

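CUT&RUN peak lists of 4 libraries were used, 2 for TAF4b and 2 for H3K4me3, grouped by sample title. Each list belongs to 1 library. Per the submitters' processing notes, reads passed through bcl2fastq 2.20, Trim Galore 0.5.0, FastQC 0.11.5, Bowtie2 2.3.0, SAMtools 1.9 and HOMER 4.10 on GRCm39. Per the file headers, H3K4me3 regions were annotated with annotatePeaks against Ensembl 103. The caller's settings are not given in the sources used here. The peak score is the authors' deposited score, whose scaling is not stated, and read totals were not given, so depth is unknown. Distances in bp are the authors' deposited values where so named and in the position test, and were otherwise computed here from the canonical start.

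Genes were named through transcript identifiers in GENCODE M39 on GRCm39, which held 98.6% to 99.2% of those deposited as nearest. The members, lists and tests were chosen with earlier results of these data known. All members could be named. By rule, further detail was given for genes with TAF4b in both replicates (none), the highest TAF4b scores, H3K4me3 in replicate 2, paralogue pairs and genes with several peaks. Coordinates of genes with no promoter interval were printed only where they fell under another part of the rule. The rule for printing sequences left none, so the peaks shown were chosen after their values were seen. Canonical starts are those tagged by Ensembl. Python 3.11.15, pandas 2.3.3, numpy 2.4.6 and scipy 1.17.1 were used. The assignment of peaks to starts and the sequence search were tested on simulated data. Alternatives changed how an interval is assigned to a gene, the part of each list used, the overlap, and the replicates.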

Additional observations from a re-analysis of the deposited data

How the results depend on the processing

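Of the alternative values, 20 stayed within 1.5 times the main count, inside its interval or in the same direction, and 11 moved. The count of genes with a TAF4b peak in replicate 1 was 20 to 35 under the other assignments and in the higher-scoring 50% of the list (20 genes, against 14.6% of all protein-coding genes), and fell from 27 to 1 (Polr2a) when the list was reduced to its 848 highest peaks, where 3.35% of all remained, or to 3 (Med19, Med29 and Polr2a) with the start-site count in those peaks, against 4.38%. The same reduction took H3K4me3 replicate 1 from 34 to 0, where 3.42% of all remained, or to 1 (Polr2h) with the start-site count, against 6.9%, and the start-site count in the full list raised it to 56. The start-site counts in reduced lists were chosen after seeing the data. H3K4me3 replicate 2 went from 1 gene to 4 with the gene nearest and within 1000 bp, 5 by the start-site count, 4 by the nearest gene in any class, and 2 with the promoter class named in either column, an alternative chosen after seeing the data. The share of TAF4b peaks of replicate 1 inside H3K4me3 regions was 3.45% with the H3K4me3 list of replicate 2, and that of replicate 2, a single peak, went from 0% to 100% with that of replicate 1. The H3K4me3 lists differ in length, and the cause of these changes was not tested.

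The difference in position was -83.25 bp with the replicate block as well (exact sign-flip p 0.5, the smallest possible), -157.5 bp with intervals whose nearest gene was a member within 1000 bp, and -110 to -56.5 bp when 1 replicate was left out. Whether equal numbers pair the samples is not stated in the labels, and with 1 member interval per list in replicate 2 it could not be checked on these genes. The unknown depth of replicate 2 limits every statement on genes missing from it.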

Other observations

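Away from the start sites, 30 H3K4me3 regions of replicate 1 had 1 of these genes as the nearest gene by the authors' annotation, at a deposited distance over 1000 bp, were not classed as promoter and lay outside the 500 bp around every annotated start of these genes. They belonged to 15 genes and had scores from 20.9 to 90.9 with a median of 32.8, at deposited distances from -41400 to 84810 bp. Med13l, a kinase module paralogue, had 6 of them, with scores from 20.9 to 55.2, and Polr2m had 4. No TAF4b peak and no H3K4me3 region of replicate 2 met the same description. Of the 64891 H3K4me3 regions of replicate 1, 20.7% were classed as promoter. Regions away from the start were not counted over all protein-coding genes, so these counts cannot be called high or low. Nearest does not mean linked.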
